A study of Mus musculus with 10 samples.

Results

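The genes described here encode subunits of respiratory complex I, and they were chosen by symbol: Nduf followed by a, b, c, s or v and a number, plus Ndufab1, without the assembly factors whose symbols start with Ndufaf. They number 37 of the 15624 genes in the count table, lie on 15 chromosomes, and all 37 passed the filter on low counts. The table was made from epithelium of pancreatic ductal adenocarcinoma in KPFSR mice, collected from frozen tumour sections by laser capture microdissection. Mice with established tumours had been given corn oil, the vehicle (n = 4 libraries), or tamoxifen (n = 6 libraries). The labels give the strain name only. As background on this model, mice of both groups carry tumour-initiating alleles switched on in the pancreas by a Pdx1-driven Flp recombinase, floxed alleles of the cystine transporter gene Slc7a11, and a tamoxifen-activated Cre expressed from the Rosa26 locus in most cell types. Cre can act in stroma as well as in epithelium, and corn oil animals carry the same alleles without its activation. The sources used here do not give age, dose, time after tamoxifen or which libraries share an animal, so a p-value measures only how these libraries spread, which may be technical.

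Complex I takes electrons from NADH, passes them through flavin mononucleotide and a chain of iron-sulfur clusters to ubiquinone, and pumps protons across the inner mitochondrial membrane. It is an L-shaped assembly whose matrix arm holds the N module, where NADH is oxidised, and the Q module, where ubiquinone is reduced. Its membrane arm has a proximal part next to the Q module and a distal part. Nuclear genes encode the catalytic core of the matrix arm and all of the accessory subunits, while the membrane core is encoded by mitochondrial DNA and is represented by 0 genes in the table. Of the 37 genes, 10 belong to the N module, 6 to the Q module, 8 to the proximal and 11 to the distal membrane arm. The lists of symbols drawn up for the proximal and distal arms were longer, with 9 and 13 symbols. Symbols that the count table does not hold are left out of all results below. The remaining 2 are Ndufa4, since reassigned to complex IV, and its paralogue Ndufa4l2, a hypoxia-induced gene reported to lower complex I activity. Thus 35 of the 37 genes encode complex I proper.

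Total counts ran from 16473902 to 36132316 in corn oil libraries and from 6899347 (tamoxifen replicate 6) to 19462115 in tamoxifen libraries. Slc7a11 stood at 38.9, 26.1, 40.1 and 23.2 normalised CPM (CPM scaled by TMM factors) in corn oil replicates 1 to 4 and 7.58, 5.90, 8.20, 19.3, 18.5 and 13.1 in tamoxifen replicates 1 to 6, with no overlap (log2 fold change -1.41, SE 0.44, edgeR adjusted p 0.311). Tamoxifen replicates 1 to 3 stood closer to each other (Spearman rho over tested genes 0.960 to 0.983) than the corn oil libraries (0.867 to 0.896) or the other tamoxifen pairs (0.803 to 0.918). Counts or medians of complex I genes, their modules and most related gene lists are therefore also given without these 3. They are not given so for the core and accessory groups or the cytosolic ribosomal protein genes. The epithelial markers Epcam, Krt8, Krt18 and Krt19 and 4 others together took 14025 to 29148 CPM with corn oil and 15171 to 25880.3 with tamoxifen. The 10 fibroblast markers summed to 434 to 962 and 659 to 1853 CPM, and the 9 listed macrophage markers to 862 to 1398 and 909.7 to 2109.6 CPM. The sums were at most 1.45 CPM for the 4 listed lymphocyte markers and 21.1 CPM for endothelial markers. The 7 listed acinar markers, of 10 chosen, summed to at most 206 CPM with corn oil and 89.8 CPM with tamoxifen. Islet markers ran from 2.39 to 216 CPM with corn oil and reached at most 0.0944 with tamoxifen. Of the markers of these types Cd3e, Cd3d, Cd4, Adgre1 and the acinar Cel, Amy2a5 and Cpb1 are not listed in the table, so these sums leave them out. Of the tested markers 7 of 8 epithelial were lower with tamoxifen (1 at an unadjusted edgeR p under 0.05), all 9 fibroblast were higher (2 at that p) and 7 of 9 macrophage were lower (0 at that p), while 2 were higher, 1 of them, Cd14, at that p. Of all tested genes 5.27% were lower and 4.43% higher at that p. The part of other cells in the results below was not tested.

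Start regions of these genes were searched because nuclear respiratory genes are known targets of the factors YY1, NRF1, GABPA and ESRRA. Of the 37 genes 32 have an entry in the RefSeq promoter table (GRCm38.p6, 250 bases before to 50 after the start) and 5, Ndufa4l2 among them, do not. The letters AAGATGGC, the core of the YY1 motif, were found on either strand in 7 of these 32 genes (21.9%) and in 4.68% of the 11322 genes of the count table with an entry. In each of the 7 the match lay on the gene's own strand, 23 to 39 bases after the start, and its ATG was the annotated start codon in GENCODE M21. The letters themselves hold an ATG, and the start codon was not checked for matches in genes outside the set. The 30 bases around each match are shown because the 7 share this placing, with the match in capitals.
Ndufa3, chr7:3617384-3617413, plus strand: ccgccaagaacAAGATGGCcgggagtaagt
Ndufc1, chr3:51408915-51408944, minus strand: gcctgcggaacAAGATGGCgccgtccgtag
Ndufs7, chr10:80249462-80249491, plus strand: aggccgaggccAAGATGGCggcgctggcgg
Ndufa9, chr6:126849097-126849126, minus strand: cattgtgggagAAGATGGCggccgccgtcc
Ndufs6, chr13:73328433-73328462, minus strand: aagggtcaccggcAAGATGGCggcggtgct
Ndufs4, chr13:114388045-114388074, minus strand: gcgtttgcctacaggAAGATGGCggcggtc
Ndufb8, chr19:44555393-44555422, minus strand: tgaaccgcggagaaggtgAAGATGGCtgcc

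Over all 530 genes of the count table with the AAGATGGC letters, 53.0% had a match after the start. The NRF1 letters, GCGCA and GCGC with any 1 base between them on either strand, were found in 6 of the 32 genes (18.8%), namely Ndufs6, Ndufa6, Ndufb4, Ndufa11, Ndufa8 and Ndufa5, against 10.02% of genes in the count table. Ndufs6 held both, and its 2 matches do not overlap. The GABPA letters CCGGAAGT were found in 1 gene, Ndufs3 (3.12% against 7.92%). The ESRRA letters TCAAGGTCA and the hypoxia-factor letters TACGTG are in none of the 32 windows, and in 0.318% and 4.27% of genes in the table. The shorter letters ACGTG within the latter do occur, for example in the windows of Ndufa1, Ndufa7 and Ndufv1, and were not counted. The NRF1 matches of the membrane arm genes Ndufa11 and Ndufa8, upstream of the start, are shown for comparison, with the match in capitals (that of Ndufa8 reads in the reverse orientation).
Ndufa11, chr17:56717692-56717721, plus strand: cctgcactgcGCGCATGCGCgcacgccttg
Ndufa8, chr2:36049349-36049378, minus strand: ctagagcagtGCGCTTGCGCgtcgctggag

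Levels differed widely between subunits. Compared per kb of transcript with corn oil, Ndufa4 was at 1147 ± 389.9 normalised CPM per kb (SD, n = 4). Ndufa7, an accessory N module subunit, followed with 1033 ± 90.7, a difference smaller than the spread of Ndufa4. The highest means of the other modules on this scale were those of Ndufb8 of the distal arm with 804 ± 139, which its neighbour in order Ndufb9 matched within the spread at 801 ± 187, Ndufa3 of the proximal arm with 551 ± 110.4, and Ndufs7 of the Q module with 417 ± 62.6 (SD, n = 4 each). The order depends on the length used. Per kb of all annotated exon sequence of a gene, the highest means were those of Ndufa2 of the N module at 708, Ndufb9 at 547 (Ndufb8 174), Ndufa4 at 507, Ndufa1 of the proximal arm at 469 (Ndufa3 277) and Ndufs8 of the Q module at 272 (Ndufs7 184), while Ndufa7 was at 298. Of the complex I genes proper, Ndufs1 was the least abundant per kb, at 16.8 ± 0.926, although it encodes the largest core subunit and holds several iron-sulfur clusters. Ndufb4 at 23.4 ± 7.69 and Ndufab1, the mitochondrial acyl carrier protein, at 41.2 ± 9.20 stood next to it, while the other 32 genes of complex I proper were at or above 94.7 (Ndufa10). Per kb of all exon sequence these 3 were again the lowest of complex I proper, at 5.38 for Ndufs1, 8.47 for Ndufab1 and 11.9 for Ndufb4, but Ndufb5 at 34.0 and Ndufb2 at 35.4 then came next, so the width of the gap above them rests on the choice of length. Ndufb4, Ndufab1, Ndufs3, Ndufa12, Ndufs6, Ndufb3 and Ndufb11 each have a near-identical annotated copy elsewhere in the genome (at least 95% identity over 200 bases). For Ndufb4 the copy is identical over 390 bases and for Ndufab1 at 99.4% over 469 bases, so their levels are uncertain. Separately, 17 of the 37 genes share exon sequence with a neighbouring gene, mostly one that runs antisense, and reads of such pairs cannot be separated in libraries that do not mark strand. The longest antisense overlaps were those of Ndufb5 with Mrpl47 (616 bases), Ndufs1 with Eef1b2 and Ino80dos (498 bases), and Ndufa13 with Tssk6 (375 bases). Ndufb2 shared 302 bases antisense with Gm16272 and Braf, and 145 bases on its own strand with Gm42420. Ndufab1 shared 269 bases with Gm44986. Ndufa4l2 was the lowest of the 37, at 1.21 ± 0.851 normalised CPM per kb.

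**Figure D1:**
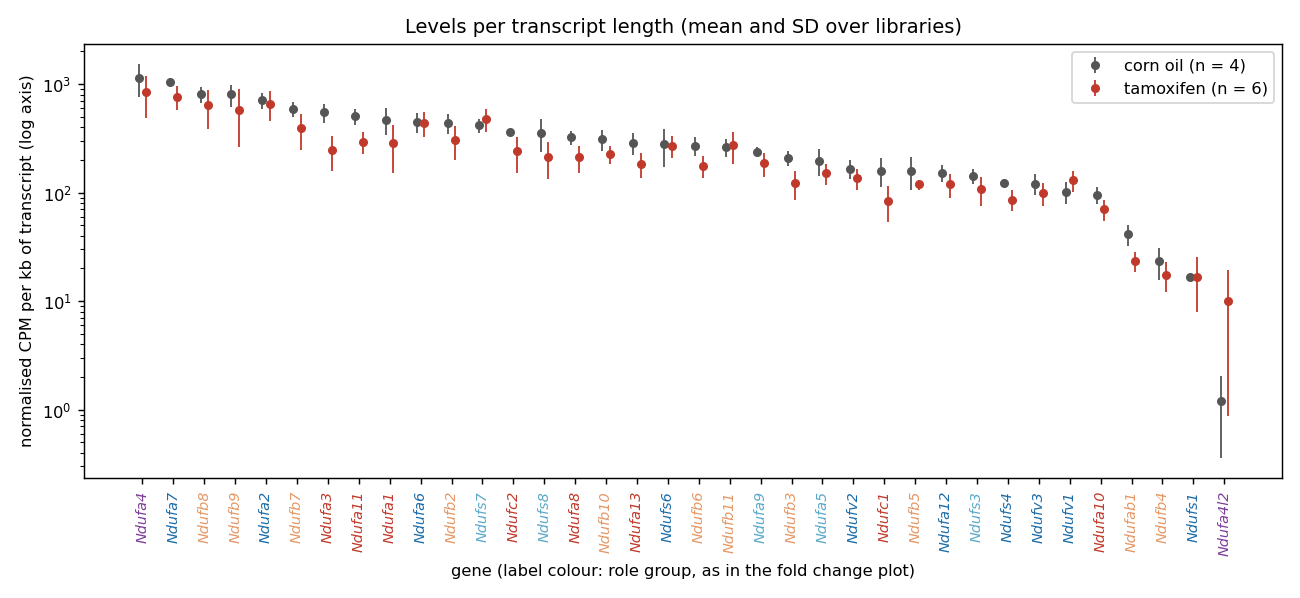
Normalised CPM per kb of transcript on a log axis for 36 of the 37 genes, in order of the corn oil mean, with points and bars for the mean and SD over 4 corn oil (grey) and 6 tamoxifen (red) libraries. Ndufa4 and Ndufa7 lead, Ndufab1, Ndufb4 and Ndufs1 stand below the other complex I genes on this scale, and Ndufa4l2 is lowest in both groups.

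The comparison sets established tumours of mice given tamoxifen, which activates Cre on the floxed Slc7a11 alleles, against those given the vehicle. No group without Cre or the floxed alleles was given tamoxifen. Effects of tamoxifen, of Cre and of Slc7a11 loss therefore cannot be told apart. Deletion itself was not measured, and Slc7a11 in tamoxifen replicates 4 and 5 (19.3 and 18.5 normalised CPM) was close to corn oil replicate 4 (23.2). Of the 37 genes 33 were lower with tamoxifen, with a median log2 fold change of -0.43, whereas over all 13006 tested genes 50.7% were lower and the median was -0.01. None of the 37 passed an edgeR adjusted p of 0.05 (0.0384% of tested genes passed). At an unadjusted edgeR p under 0.05 there were 13 lower (5.27% of tested genes) and 1 higher, Ndufa4l2 (4.43% of tested genes). DESeq2 called Ndufa3 lower (0.94% of genes were called lower) and Ndufa4l2 higher (0.948%), and limma voom with sample quality weights called 15 lower (6.94%) and 0 higher (2.68%), with weights that favour tamoxifen replicates 1 to 3. The 13 genes lower at an unadjusted edgeR p became 5 when tamoxifen replicates 1 to 3 were merged into 1 sample and 2 without these 3, while 31 and 30 of 37 were then lower and the medians were -0.39 and -0.36. Of all genes tested in those settings 2.67% and 2.23% were lower at that p. Of the 37 genes, 5 were lower at that p without tamoxifen replicate 2 or without tamoxifen replicate 3 (3.49% and 3.41% of tested genes). They numbered 8 without tamoxifen replicate 5 (5.3%), and 7 or 8 when corn oil replicate 3 or 4 was left out (4.55% and 4.29%). Without tamoxifen replicate 1, 4 or 6 there were 13, 11 and 17 (4.15%, 6.67% and 7.07%). Without corn oil replicate 1 or 2 there were 11 and 9 (4.25% and 4.24%). In bulk RNA of this kind, fewer cells of a type and less RNA per cell cannot be told apart.

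Transcript length moved with these differences. The median transcript length was 875 bases for the 37 genes and 2754 for tested genes, and short transcripts were lower with tamoxifen across the table. Median log2 fold changes of all tested genes were -0.30 up to 600 bases, -0.35 from there to 800 bases, -0.27 to 1000 bases, -0.17 to 1500 bases and 0.10 between 3000 and 5000 bases. Against the median of its own length class, the complex I gene was lower in 29 of 37 cases, with a median gap of -0.22. With each library's trend on length removed, which was added once the values had been seen, the median of the 37 went from -0.43 to -0.10 and that of all tested genes from -0.01 to 0.09, so the gap between these medians was -0.19 in place of -0.42. Whether the trend reflects the tumours or the libraries was not tested. Then 28 of 37 were lower, against 44.0% of all tested genes in that setting. At an unadjusted p under 0.05, 1 (Ndufa3) was lower (3.5% of tested genes) and 2 (Ndufa4l2 and Ndufs7) higher (5.5%). Only these shares at the unadjusted p were near those of all genes. The 74 cytosolic ribosomal protein genes, with a similar median length of 768 bases, had a median of 0.05, whose sign turned when single libraries were left out (-0.09 to 0.14).

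**Figure D2:**
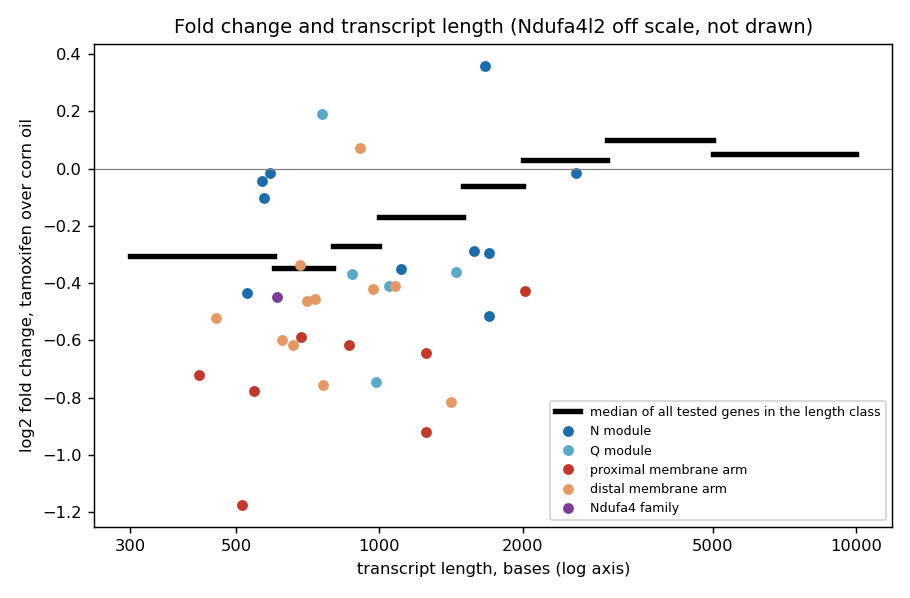
Log2 fold change of 35 of the 37 complex I genes (points, coloured by role group, with Ndufa4l2 off the scale) against transcript length on a log axis, with the median of all tested genes in each length class as a black bar. The class medians run from -0.30 for the shortest to 0.10 between 3000 and 5000 bases, and most points lie below the bar of their class.

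The proximal membrane arm held 7 of the 13 genes lower at an unadjusted edgeR p under 0.05. It surrounds the ubiquinone entry and the first proton channels, and its accessory subunits are mostly small membrane proteins. All 8 of its genes in the count table were lower, 7 of them at an unadjusted edgeR p under 0.05, with a median log2 fold change of -0.68. With tamoxifen replicates 1 to 3 left out the 8 were still lower, with a median of -0.47 and 1 at an unadjusted p under 0.05, and with the length trend removed the 8 were lower with a median of -0.33 and 1 at that p. Leaving out tamoxifen replicate 2, tamoxifen replicate 3 or corn oil replicate 3 gave 3 at that p, and a fit with sex as a covariate or one that dropped corn oil replicate 2 gave 4.

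Ndufa3, a small single-pass accessory subunit beside the mitochondrially encoded ND1, lies on chromosome 7 at 3617373 to 3620327 of GRCm38. It stood at 218, 266, 353 and 297 normalised CPM in corn oil replicates 1 to 4 and 129.9, 91.6, 78.8, 126, 123 and 205 in tamoxifen replicates 1 to 6. Every tamoxifen library was below every corn oil library, with tamoxifen replicate 6 close to corn oil replicate 1. Its log2 fold change was -1.17 (SE 0.27, edgeR adjusted p 0.155), the lowest of the 37, and it ran from -1.37 to -1.05 with 1 library left out. Ndufa11, a multi-pass accessory subunit related to the mitochondrial import proteins, lies on chromosome 17 at 56717767 to 56722141. It stood at 267, 285, 326 and 218 normalised CPM in corn oil replicates 1 to 4 and 140.3, 134, 114, 192, 179 and 201 in tamoxifen replicates 1 to 6. The groups again did not overlap, and corn oil replicate 4 and tamoxifen replicate 6 were closest. The log2 fold change was -0.78 (SE 0.23, edgeR adjusted p 0.270).

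Ndufc1, a small subunit beside ND2, stood at 187, 151, 287 and 173 normalised CPM in corn oil replicates 1 to 4 and 116, 78.0, 79.9, 67.9, 120.0 and 170.3 in tamoxifen replicates 1 to 6. Tamoxifen replicate 6 was within the corn oil range and the other 5 were below it. The log2 fold change was -0.92 (SE 0.29, edgeR adjusted p 0.311). Its partner Ndufc2 ran from 226 to 256 with corn oil, and 107 to 272 with a median of 161 with tamoxifen. The corn oil libraries were close together, and tamoxifen replicate 6 stood above all 4 of them while the other 5 stood below, which is -0.59 as a log2 fold change (SE 0.26, edgeR adjusted p 0.501). The X-linked Ndufa1, needed early in assembly of the membrane arm, ran from 131 to 261 with corn oil, and 65.5 to 219.8 with a median of 109 with tamoxifen, and its groups overlapped. Ndufa13, also known as GRIM-19, ran from 243 to 433 with corn oil, and 168 to 305 with a median of 220.4 with tamoxifen, with overlap. Ndufa8, which faces the intermembrane space, ran from 233 to 315 with corn oil, and 134 to 266 with a median of 174 with tamoxifen, with tamoxifen replicate 4 alone inside the corn oil range. Log2 fold changes of these 3 were -0.72, -0.64 and -0.62, with edgeR adjusted p of 0.513, 0.403 and 0.403. Ndufa10, a subunit with a nucleoside kinase fold, had the smallest difference of the arm, at -0.43 (SE 0.23).

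In the distal membrane arm, which carries the outer proton channels, 10 of 11 genes were lower, 4 at an unadjusted edgeR p under 0.05, with a median log2 fold change of -0.46. Without tamoxifen replicates 1 to 3 the median was -0.43 with 1 gene at that p, and with the length trend removed it was -0.11 with 0 genes at that p. That number was 2 without corn oil replicate 4, tamoxifen replicate 2 or tamoxifen replicate 3, and with sex as a covariate. Ndufab1, which binds LYR-motif subunits in both the matrix arm and the distal arm, lies on chromosome 7 at 122085403 to 122101886. It stood at 50.9, 55.4, 49.4 and 77.5 normalised CPM in corn oil replicates 1 to 4 and 37.4, 24.0, 25.7, 39.6, 34.9 and 37.6 in tamoxifen replicates 1 to 6. Every tamoxifen library was below every corn oil library, and the log2 fold change was -0.81 (SE 0.27, edgeR adjusted p 0.327). Its LYR-motif partner Ndufb9 ran from 412 to 729.5 with corn oil, and 262 to 857 with a median of 341 with tamoxifen, with tamoxifen replicate 6 far above the other 5, at a log2 fold change of -0.46 (SE 0.34).

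Ndufb3, a small single-pass subunit, ran from 135 to 192 with corn oil, and 63.6 to 138 with a median of 91.8 with tamoxifen. Its tamoxifen replicate 6 was the only one above the lowest corn oil library. Ndufb6 ran from 143 to 228 with corn oil, and 81.8 to 145 with a median of 119 with tamoxifen, and Ndufb7, on the intermembrane face, from 318 to 439 with corn oil, and 165 to 411 with a median of 223 with tamoxifen. In Ndufb6, tamoxifen replicate 1 was inside the corn oil range, and in Ndufb7 replicate 6. Log2 fold changes were -0.76, -0.62 and -0.60, with edgeR adjusted p of 0.327, 0.400 and 0.489. Ndufb8, Ndufb2, Ndufb10, Ndufb4 and Ndufb5 had log2 fold changes between -0.52 (Ndufb2) and -0.34 (Ndufb8). The X-linked Ndufb11 was the exception of the arm, at 175 to 275 with corn oil and 164 to 360.1 normalised CPM with tamoxifen and a log2 fold change of 0.07 (SE 0.27), whose sign depends on single libraries.

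All tamoxifen libraries lay below all corn oil libraries for 3 of the 37 genes, Ndufa3, Ndufa11 and Ndufab1 (1.95% of tested genes), and above them for Ndufa4l2 (1.28% of tested genes).

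**Figure D3:**
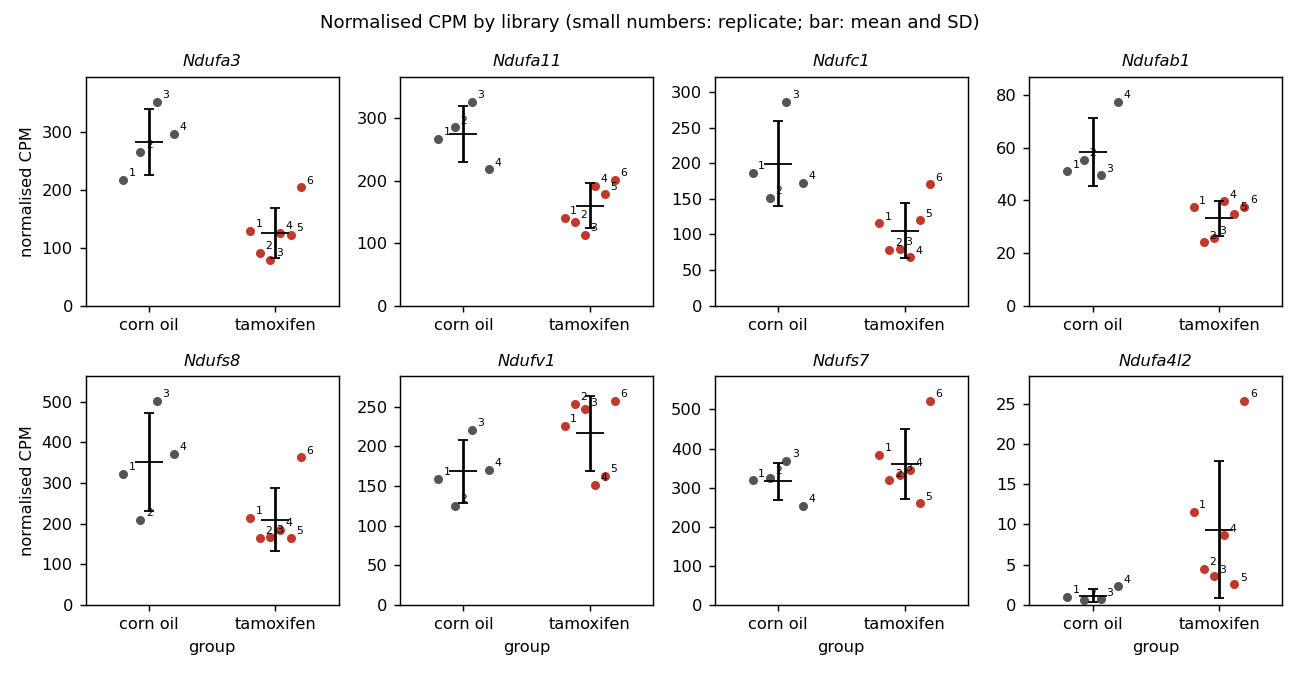
Normalised CPM per library (points, labelled with the replicate number) with mean and SD (black) for 4 membrane arm genes, 3 core genes of the matrix arm and Ndufa4l2, in corn oil (n = 4) and tamoxifen (n = 6). The groups are apart for Ndufa3, Ndufa11, Ndufab1 and Ndufa4l2 and overlap for Ndufc1, Ndufs8, Ndufv1 and Ndufs7.

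The matrix arm, which carries the electron path from NADH to ubiquinone, lay closer to no difference. In the N module 9 of 10 genes were lower with a median log2 fold change of -0.20, and in the Q module 5 of 6 with a median of -0.36. In each, 1 gene had an unadjusted edgeR p under 0.05, Ndufs4 and Ndufs8. Without corn oil replicate 2 or 3, 7 and 6 of the 10 N module genes were lower, with 0 at that p. The Q module stayed at 5 of 6 lower in both settings. The difference between the arms was not tested. The medians of the N and Q modules were -0.13 and -0.29 without tamoxifen replicates 1 to 3, and -0.04 and -0.07 with the length trend removed. Transcripts of the membrane arm had a median length of 732 bases and those of the matrix arm 1078 bases.

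Among the 7 core subunits, 5 were lower and 2 higher. Ndufv1, which binds NADH and flavin mononucleotide where electrons enter, stood at 159, 125, 221 and 170.1 normalised CPM in corn oil replicates 1 to 4 and 226, 254, 247, 152, 163 and 258 in tamoxifen replicates 1 to 6. Tamoxifen replicates 1, 2, 3 and 6 were above all corn oil libraries and replicates 4 and 5 within their range, which is 0.36 as a log2 fold change (SE 0.24, edgeR adjusted p 0.707). Its iron-sulfur partner Ndufv2 ran from 205 to 326 with corn oil, and 177 to 287 with a median of 229 with tamoxifen, at a log2 fold change of -0.29 (SE 0.23). Ndufs1 stood at 41.9, 41.8, 43.5 and 46.9 normalised CPM in corn oil replicates 1 to 4 and 48.9, 63.5, 67.1, 26.3, 43.9 and 8.33 in tamoxifen replicates 1 to 6. The corn oil libraries were nearly equal, while tamoxifen spread from replicate 6, with 51 reads, to replicate 3. The log2 fold change was -0.02 (SE 0.45), and its sign depends on single libraries.

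Ndufs7 lines the ubiquinone pocket and holds the last iron-sulfur cluster of the chain. Ndufs7 ran from 253 to 368 with corn oil, and 259 to 522 with a median of 339 with tamoxifen, which is 0.19 as a log2 fold change (SE 0.23, edgeR adjusted p 0.872) that became 0.57 (edgeR adjusted p 0.500) with the length trend removed. Ndufs8, which carries iron-sulfur clusters between the N module and the pocket, ran from 209.5 to 502 with corn oil, and 164 to 363 with a median of 176 with tamoxifen, with tamoxifen replicates 1 and 6 within the corn oil range. Its log2 fold change was -0.75 (SE 0.30, edgeR adjusted p 0.427). Ndufs3, a core Q module scaffold, ran from 121 to 169 with corn oil, and 79.3 to 165 with a median of 109 with tamoxifen, at -0.41 (SE 0.25).

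Accessory genes of the matrix arm ranged from Ndufs4, whose loss models Leigh syndrome in mice, at -0.51 (SE 0.22, edgeR adjusted p 0.469), to Ndufa6, at -0.01 (SE 0.24). Ndufs4 ran from 186 to 231 with corn oil, and 115 to 189 with a median of 139 with tamoxifen, and tamoxifen replicate 6 alone reached the corn oil range. Ndufa7, Ndufa5, Ndufa9, Ndufa12 and Ndufv3 had log2 fold changes between -0.43 (Ndufa7) and -0.29 (Ndufv3), and Ndufa2 and Ndufs6 were at -0.10 and -0.04. Over the 28 accessory genes of complex I proper 27 were lower with a median of -0.46, against 5 of 7 core genes with a median of -0.14. The core transcripts were longer, with a median of 1623 bases against 748.

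**Figure D4:**
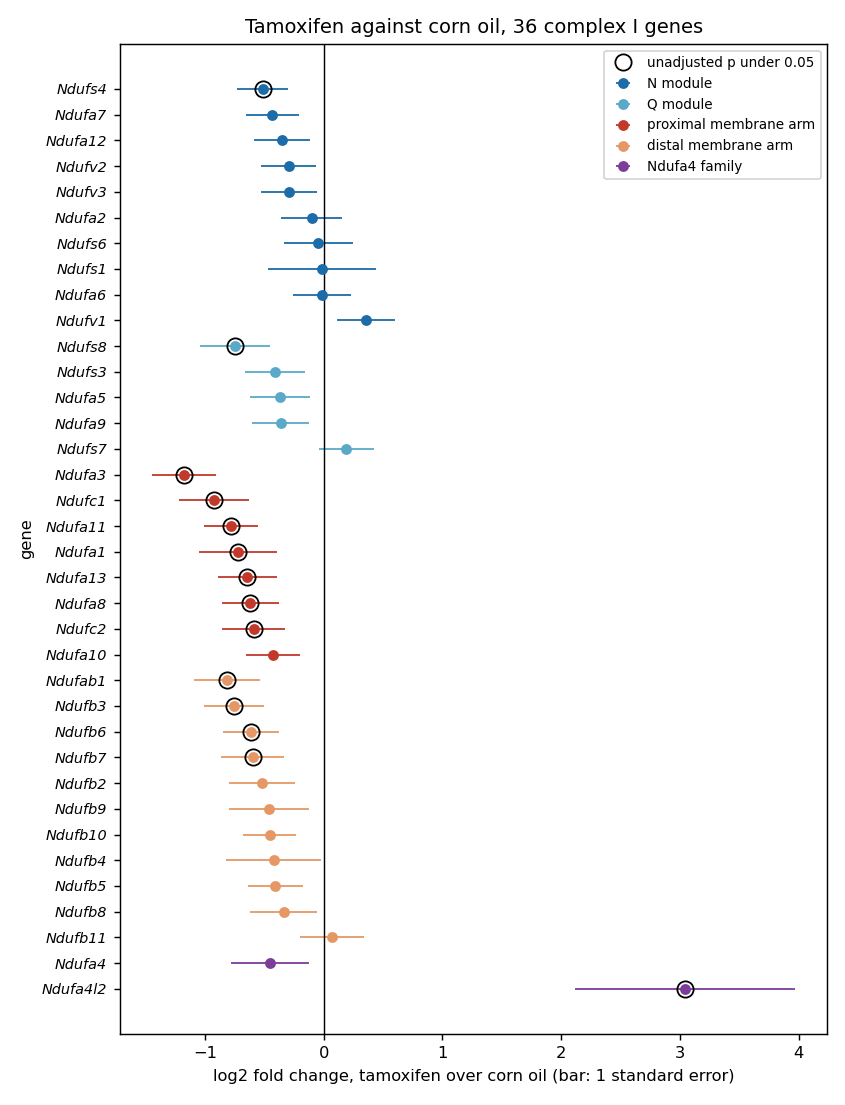
Log2 fold change of tamoxifen over corn oil for 36 of the 37 genes with 1 standard error, grouped and coloured by role, with a ring around genes at an unadjusted edgeR p under 0.05. The proximal membrane arm carries 7 rings on 8 genes and the distal arm 4 on 11, the N and Q modules 1 each, and Ndufa4l2 stands apart at 3.04.

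Ndufa4 and its paralogue Ndufa4l2 differed in direction. Ndufa4l2, on chromosome 10 at 127514967 to 127517154, stood at 0.985, 0.549, 0.685 and 2.29 normalised CPM in corn oil replicates 1 to 4 and 11.6, 4.49, 3.55, 8.61, 2.54 and 25.3 in tamoxifen replicates 1 to 6. Every tamoxifen library was above every corn oil library, but tamoxifen replicate 5 was near corn oil replicate 4, and tamoxifen replicate 6 was the highest. These values rest on 16 to 55 reads with corn oil and 51 to 155 with tamoxifen. The log2 fold change was 3.04 (SE 0.93, edgeR adjusted p 0.295), with 2.44 to 3.65 when 1 library was left out. Ndufa4 stood at 434, 910.5, 890.4 and 564 normalised CPM in corn oil replicates 1 to 4 and 629.8, 359, 376, 901, 460.2 and 349 in tamoxifen replicates 1 to 6. Tamoxifen replicates 1, 4 and 5 were within the corn oil range and replicates 2, 3 and 6 below it, at -0.45 (SE 0.33, edgeR adjusted p 0.729).

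The log2 ratio of Ndufa4l2 to Ndufa4, from log2 CPM with a prior count of 2, was -9.28 ± 1.22 (SD, n = 4) in the corn oil group and -6.11 ± 1.27 (SD, n = 6) in the tamoxifen group, so Ndufa4 remained far the more abundant. The difference of 3.17 had an exact two-sided permutation p of 0.00952, the smallest that 4 and 6 libraries allow. Tamoxifen replicates 4 to 6 alone gave 3.31 (exact permutation p = 0.0571, likewise the smallest possible for 4 and 3 libraries). Both p-values are unadjusted. The ratio rests largely on Ndufa4l2 itself (log2 fold change 3.04), whose groups were already apart, so its p is not separate evidence. Ndufa4l2 is known as a hypoxia-induced gene, and of 22 other such genes 21 were tested. All 21 were higher, with a median log2 fold change of 0.99. At an unadjusted edgeR p under 0.05 there were 11 (4.43% of tested genes were higher at that p), and 0 passed the adjusted threshold. DESeq2 called 3 of the 21 (0.948% of genes were called higher) and limma voom 11 (2.68%). Without tamoxifen replicates 1 to 3 the 21 were still higher, 4 at an unadjusted p under 0.05, with a median of 0.72. Of 13029 genes tested then, 602 were at that p in either direction. Without tamoxifen replicate 4 there were 17 at that p and 2 past the adjusted threshold. Of 12880 genes tested in that setting, 1562 were at that p and 11 past the threshold, in either direction. Ndrg1 was at 2.29 and P4ha1, a collagen prolyl hydroxylase, at 2.76, with edgeR adjusted p of 0.113 and 0.198. In tamoxifen replicate 4 Ndufa4l2 was at 8.61 normalised CPM while P4ha1 was at 9.42, within its corn oil range of 8.90 to 29.5. The hypoxia list was chosen with earlier results of these data known.

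The tamoxifen libraries differed among themselves. The 35 genes of complex I proper took 0.850%, 0.782%, 0.950% and 0.767% of counts in corn oil replicates 1 to 4. They took 0.814%, 0.595%, 0.591%, 0.621%, 0.628% and 0.803% in tamoxifen replicates 1 to 6. By this share of raw counts, tamoxifen replicates 1 and 6 were within the corn oil range and replicates 2 to 5 below it. As summed normalised CPM of the 35 genes, tamoxifen replicate 1 (7516) was also below the corn oil range of 8016 to 9622. Tamoxifen replicate 6 (9054) was within that range. Of the 35 genes 10 had their lowest level in tamoxifen replicate 2 and 12 in replicate 3, and 9 had their highest in tamoxifen replicate 6 and 13 in corn oil replicate 3. In tamoxifen replicates 2 and 3 together, 26 of 35 genes were below all corn oil libraries, as were 17% of tested genes. For tamoxifen replicates 1 to 3 this number was 13 (12.1% of tested genes), and for replicates 4 to 6 it was 4 (3.81% of tested genes). Read from Xist and Ddx3y, 2 of the 4 corn oil libraries and 1 of the 6 tamoxifen libraries were female, so sex was not balanced between the groups. Tamoxifen replicate 6, the only female tamoxifen library, had the fewest counts and 11643 detected genes, against 12658 to 14674 in the others. The part of depth or sex in its values was not tested.

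**Figure D5:**
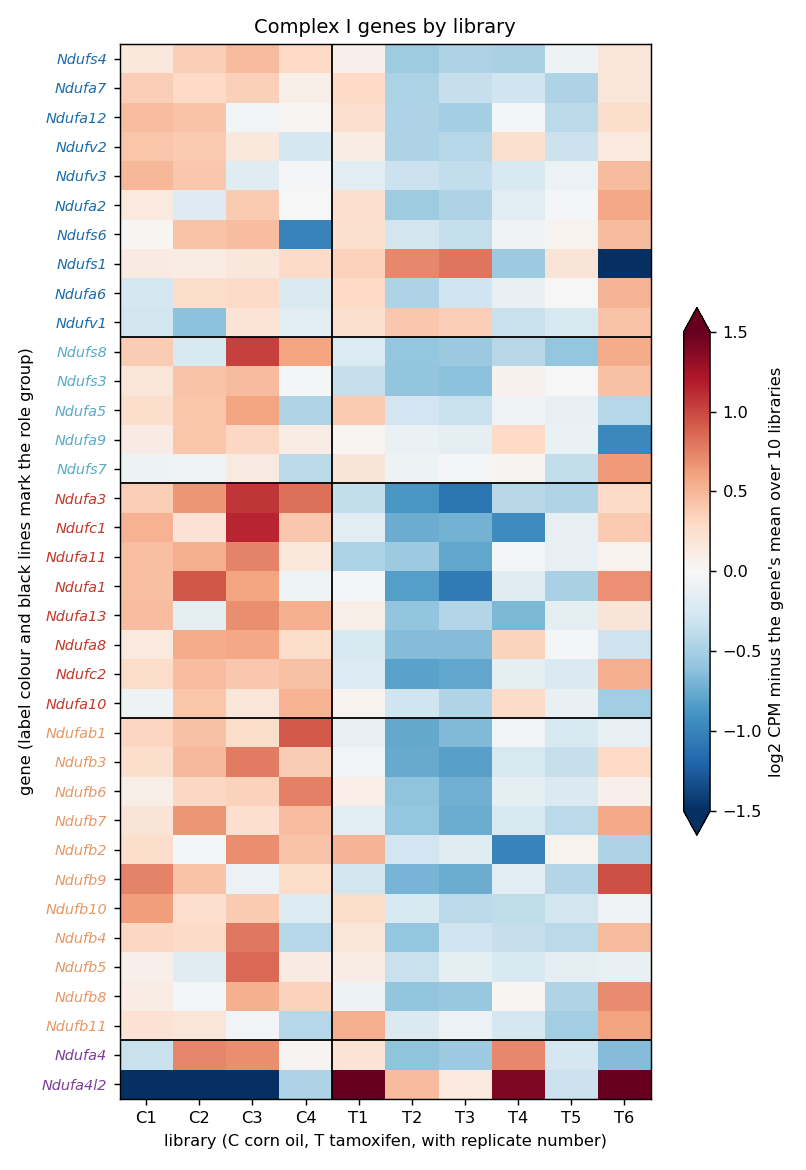
Log2 CPM of 36 of the 37 genes, each minus its mean over the 10 libraries (red higher, blue lower, colours capped at 1.5), with corn oil replicates C1 to C4 left of the vertical line and tamoxifen replicates T1 to T6 right of it, and black horizontal lines between role groups. Replicates T2 and T3 hold the lowest level of 10 and 12 of the 35 complex I genes proper, and T6 the highest of 9.

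Genes tied to complex I by function gave the setting for these values. Assembly factors, which build the complex and leave it, were split, with 6 of 15 lower and 9 higher, a median log2 fold change of 0.26 and 0 at an unadjusted edgeR p under 0.05. With sex as a covariate 9 were lower and 6 higher, with a median of -0.18, and without tamoxifen replicates 1 to 3 the median was 0.025. The smallest p belonged to Ecsit at 0.81 (edgeR adjusted p 0.533), followed by Nubpl, an iron-sulfur carrier for complex I, at 1.25 (edgeR adjusted p 0.62). Of the subunits of complexes II to V, 31 of 38 were lower, with a median of -0.41. At an unadjusted p under 0.05, 9 were lower (5.27% of tested genes) and 1 higher (4.43%). Without tamoxifen replicates 1 to 3, 30 of 38 were lower, 1 of them at that p, with a median of -0.25. The number lower at that p was 5 without tamoxifen replicate 2, 3 or 5 (3.49%, 3.41% and 5.3% of tested genes). It was 6 without corn oil replicate 1 (4.25%), and 16 without tamoxifen replicate 6 (7.07%). Cox5b and Cox7a2, both of cytochrome c oxidase, were at -0.95 and -0.86, with edgeR adjusted p of 0.212 and 0.320. With the length trend removed the median of complexes II to V was -0.054, with 1 gene lower at that p.

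Of 12 regulators of mitochondrial gene expression 4 were lower and 8 higher, with a median of 0.20. That direction turned to a median of -0.37 without tamoxifen replicates 1 to 3, -0.0063 without tamoxifen replicate 1 alone and -0.22 with sex as a covariate. Ppargc1a, the coactivator PGC-1alpha, had the smallest p. It was at 3.20 to 18.5 normalised CPM with corn oil and at 0 to 2.09 with tamoxifen, with no overlap and a difference of -3.03 on the log2 scale (SE 1.06, edgeR adjusted p 0.350). Yy1 was at -0.66 (SE 0.35), Nrf1 at 0.02 (SE 0.55), Gabpa at 0.47 (SE 0.37) and Esrra at -0.14 (SE 0.34), these being the factors whose letters were searched. Of 9 genes of the mitochondrial outer membrane and matrix 7 were higher, with a median of 0.26, against 4 higher and a median of -0.005 without tamoxifen replicates 1 to 3. Hspa9, the matrix chaperone mortalin, was at 1.38 (SE 0.30, edgeR adjusted p 0.148) and Vdac2, an outer membrane pore, at 0.51 (SE 0.21, edgeR adjusted p 0.448). No gene of these 4 lists passed the adjusted threshold with edgeR and all libraries. DESeq2 called 1 gene of complexes II to V and 1 of the outer membrane and matrix (0.94% of all genes were called lower and 0.948% higher). Limma voom called 18 of complexes II to V and 1 of each of the other 3 lists (6.94% of all genes were called lower and 2.68% higher). Without tamoxifen replicates 4 and 6 edgeR called 1 of the outer membrane and matrix, and 77 of all 12790 genes tested.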

How the data were processed

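Each gene symbol has 1 raw read count per library in the table the authors deposited. Reads were processed with STAR 2.5.2b, featureCounts 1.5.0-p3, bcl2fastq 2.17 and the mm10 build, per the submitters' processing notes. The annotation, strand setting and rule for reads mapping to several places are not given in the sources used. Per the labels' protocols, RNA was amplified with SMART-seq v4 and libraries were made with Nextera XT, which does not mark strand. Counts were tested with edgeR 4.0.16 (filterByExpr, TMM, quasi-likelihood F test without covariates, Benjamini-Hochberg over 13006 genes). The SE is the absolute log2 fold change divided by the square root of F. The ratio was tested by an exact two-sided permutation over 210 arrangements.

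Positions and transcript lengths came from GENCODE M21 (GRCm38, which mm10 represents), which held 93.6% of symbols and all 37 members. Lengths are of 1 transcript per gene, the best annotated and then the shortest. Promoters came from RefSeq. Named with values were core genes, Ndufa4 and Ndufa4l2, genes with an unadjusted p under 0.05, groups that do not overlap or an outlying library, and the extremes of each role group in fold change and level. Of other lists the 2 of smallest p were named. 1 core gene is counted in the totals and not reported here by name. Members and lists were chosen with earlier results of these data known. Alternatives were DESeq2 1.42.0, limma 3.58.1 voom, RLE and upper-quartile factors, no filter, 5 CPM in 4 libraries, robust dispersion, an FDR of 0.1, sex as covariate (read from Xist and Ddx3y), and libraries left out or merged. On data simulated for tamoxifen against corn oil (12653 genes, 50 changed per fold), edgeR recovered 0% at 2-fold, 34% at 4-fold and 68% at 8-fold and 16-fold changes, with 3 false calls.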

Additional observations from a re-analysis of the deposited data

Results flagged for a closer look

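Tamoxifen replicate 6 stood above the other 5 tamoxifen libraries by more than Dixon's 95% limit for 5 genes, among 76 checks of 37 genes and the log2 ratio of Ndufa4l2 to Ndufa4 in each group. Chance flags about 1 in 20 groups. The level in replicate 6 was 857 normalised CPM for Ndufb9 (the other 5 at 262 to 387), 749 normalised CPM for Ndufb8 (the other 5 at 303 to 468) and 411 normalised CPM for Ndufb7 (the other 5 at 165 to 247), all of the distal membrane arm. It was 363 normalised CPM for Ndufs8 (the other 5 at 164 to 214), a core gene of the Q module, and 231 normalised CPM for Ndufv3 (the other 5 at 129 to 156), an accessory gene of the N module. This is the library with the fewest counts and detected genes.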

How the results depend on the processing

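The number of complex I genes past the adjusted threshold was 0 with edgeR under each scaling, filter, dispersion, FDR of 0.1, sex and leave-one-out setting. It was 1 with tamoxifen replicates 4 and 6 left out (Ndufa3), 2 with DESeq2 and 15 with limma voom. Of all genes, 77 of 12790 passed with tamoxifen replicates 4 and 6 left out, 243 with DESeq2 and 1251 with limma voom. Their median log2 fold change was -0.62 with limma voom and, in alternatives chosen after seeing the data, -0.10 with the transcript length trend removed and -0.098 with the longest transcript of each gene. With 1 library left out it ran from -0.49 to -0.34, and 30 to 34 of 37 genes were lower. The log2 ratio of Ndufa4l2 to Ndufa4 was 2.71 to 3.63 with 1 library left out, and 3.31 (exact permutation p = 0.0571) without tamoxifen replicates 1 to 3, where fewer samples set the smallest possible p. Ndufs1 turned to 0.43 with limma voom and 0.36 without tamoxifen replicates 4 and 6, was at -0.50 with sex as a covariate and -0.73 without tamoxifen replicates 1 to 3, and ran from -0.15 to 0.20 with 1 library left out. Ndufb11 turned to -0.11 with limma voom and -0.021 without tamoxifen replicates 4 and 6 and ran from -0.064 to 0.20. With the length trend removed Ndufb8 was at 0.045, and with the longest transcript Ndufb8 was at 0.051, Ndufa7 at 0.015 and Ndufa4 at 0.0061. The cause of these changes was not tested. No paired analysis was possible because the labels give the groups no shared replicate numbers. Depth limits Ndufa4l2, with 16 to 155 reads per library.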
